A study of Mus musculus with 10 samples.

Results

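The genes described here encode the lipid-digesting enzymes of pancreatic juice and their cofactor. They are Pnlip, Pnliprp1, Pnliprp2, Cel and Pla2g1b, which encode enzymes, and Clps, which encodes colipase. They were chosen by name, with earlier results of these data known, and all 6 were found among the 12160 genes of the table. Expression was compared between tuft cells of the pancreas and non-tuft epithelial cells, with 5 libraries per group and 100 sorted cells per library. Both groups came from wild-type male CD1 mice with pancreatitis after 4 cycles of caerulein at 250 μg/kg. A strain entry in the sample records reads Mixed, and the age was not given. Caerulein is a cholecystokinin analogue that overstimulates acinar cells. Tuft cells were sorted as Cd45-neg, EpCAM+ and Siglec f+, and non-tuft cells as Cd45-neg, EpCAM+ and Siglec f-neg. Both populations were taken from 5 mice, each library from 1 mouse. On that design each tuft library has a non-tuft partner from the same mouse, but which libraries pair was not stated. The main tests therefore treated all libraries as independent. No untreated mice were included, so both groups share the injury. The non-tuft gate takes any other epithelial cell of the injured pancreas, including acinar, ductal, metaplastic and islet cells.

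In the healthy pancreas these enzymes are made by acinar cells, packed into zymogen granules and released into the duodenum. Pancreatic triglyceride lipase, the product of Pnlip, cleaves dietary triglycerides at the surface of fat droplets, where bile salts would displace it if colipase did not anchor it. Pnliprp2 is a related lipase with a wider range of substrates, including galactolipids and phospholipids, and Pnliprp1 is a related protein with little known lipase activity. Cel is the bile salt-dependent carboxyl ester lipase, which also cleaves cholesterol esters and esters of fat-soluble vitamins. Pla2g1b is the pancreatic phospholipase A2, which is secreted as a proenzyme and activated by trypsin. Transcription of acinar enzyme genes depends on a complex of Ptf1a, an E-box binding protein and Rbpjl, an acinar relative of the Notch mediator Rbpj.

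On mouse build NCBIM37, the 3 related lipase genes stood side by side on the plus strand of chromosome 19. Pnlip lay at chr19:58744855-58756276, Pnliprp1 at chr19:58803377-58818659 and Pnliprp2 at chr19:58834213-58852023. Gaps of 47100 and 15553 bases separated them, with 0 annotated genes in between. The other members were on other chromosomes: Cel at chr2:28411315-28418923 on the minus strand, Clps at chr17:28695155-28697711 on the minus strand and Pla2g1b at chr5:115916271-115924731 on the plus strand. The coding transcripts of the 6 genes shared 0 stretches of 50 bases, the read length, with those of other genes.

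Acinar enzyme genes depend on the complex named above, and whether each member is a target of it was not tested here. The 250 bases before the transcription start are shown for the 4 members whose windows held a searched motif. The sequences are from RefSeq, build GRCm38.p6, each on the strand of its gene. They lie at chr19:58670115-58670364 for Pnlip, chr19:58728637-58728886 for Pnliprp1, chr19:58759473-58759722 for Pnliprp2 and chr2:28563404-28563653 for Cel, the last on the minus strand. Capitals mark 3 motifs on either strand: the TATA box letters TATAAA, the E-box letters CANNTG, which include CACCTG, and the core letters of RBPJ sites, TTCCCA.
Pnlip: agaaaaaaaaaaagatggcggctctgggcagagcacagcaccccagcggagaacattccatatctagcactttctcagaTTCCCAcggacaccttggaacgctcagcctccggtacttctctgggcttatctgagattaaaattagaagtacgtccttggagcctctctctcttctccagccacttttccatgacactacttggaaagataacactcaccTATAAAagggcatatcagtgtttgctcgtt
Pnliprp1: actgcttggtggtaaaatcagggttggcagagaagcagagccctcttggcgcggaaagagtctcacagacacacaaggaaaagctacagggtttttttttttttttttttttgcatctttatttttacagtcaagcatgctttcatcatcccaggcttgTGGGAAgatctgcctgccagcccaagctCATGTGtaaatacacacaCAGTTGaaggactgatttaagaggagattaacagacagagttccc
Pnliprp2: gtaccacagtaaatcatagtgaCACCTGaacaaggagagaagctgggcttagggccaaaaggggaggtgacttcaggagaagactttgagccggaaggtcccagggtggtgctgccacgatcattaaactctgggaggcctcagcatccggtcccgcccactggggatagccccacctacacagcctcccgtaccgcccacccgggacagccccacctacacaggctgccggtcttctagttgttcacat
Cel: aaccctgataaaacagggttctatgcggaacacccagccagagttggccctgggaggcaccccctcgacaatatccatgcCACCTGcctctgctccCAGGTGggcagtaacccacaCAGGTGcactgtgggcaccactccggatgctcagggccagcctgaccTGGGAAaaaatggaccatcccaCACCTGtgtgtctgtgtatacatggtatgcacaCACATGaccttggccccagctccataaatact
Pnlip alone held TATAAA, 30 to 25 bases before its start, against 12.4% of all 32851 upstream windows of this length. Cel held 5 E-boxes, of which 4 read CACCTG on either strand, and Pnliprp1 held 2 and Pnliprp2 held 1. An E-box stood in 66.2% of all windows and the CACCTG form in 17.2%. TTCCCA was found once each in Pnlip, Pnliprp1 and Cel, against 21.6% of all windows. Cel and Pnliprp1 held both an E-box and TTCCCA, as did 14.8% of all windows. The window of Pla2g1b, the remaining member with an entry, held none of these letters. Such matches describe the letters of the window and are not evidence of binding.

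The lipase genes were among the abundant transcripts of the non-tuft libraries, and all 6 genes had lower means in tuft libraries. Of the 6 genes, 4 fell in tuft cells, namely Pnliprp1, Pnliprp2, Cel and Pla2g1b, with log2 fold changes from -5.15 to -4.53. Pnlip and Clps did not pass the test. A gene was called when limma's moderated test gave an adjusted p under 0.05 over all genes and the fold change exceeded 4. By this rule 3.99% of all genes were called lower and 4.32% higher. Values are log2(RPKM + 1), where RPKM is the read count scaled to gene length and to the library's total, after the authors' quantile normalization, which gives all libraries the same distribution. Fold changes are on this scale. In sorted pools, fewer cells of a type and less RNA per cell cannot be told apart.

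**Figure D1:**
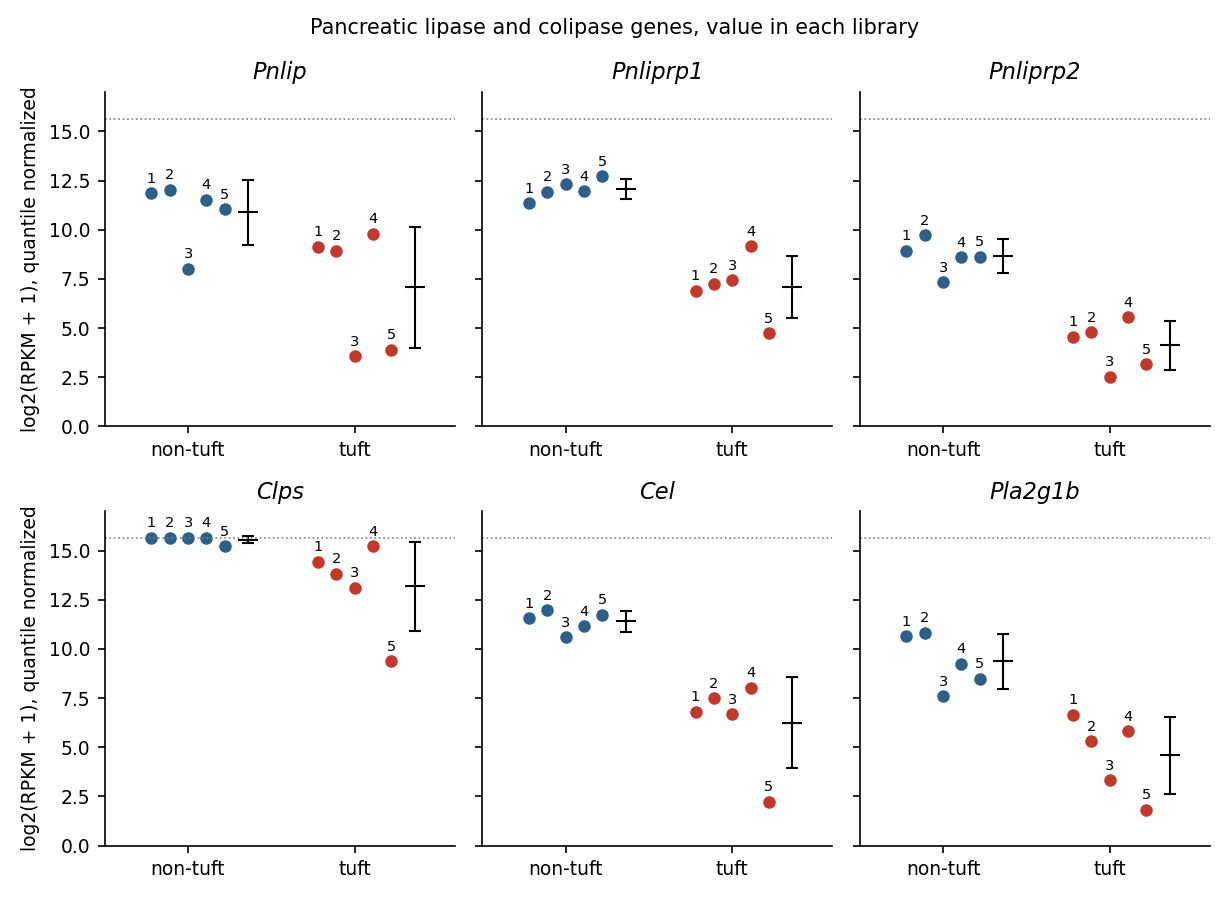
Each panel plots the value of 1 gene, log2(RPKM + 1) after quantile normalization, in the 5 non-tuft (blue) and 5 tuft (red) libraries, numbered by replicate, with the mean and SD as black bars and the highest value a library can hold, 15.65, as a dotted line. Tuft and non-tuft points are separate for Pnliprp1, Pnliprp2, Cel and Pla2g1b, overlap for Pnlip, and tie at 15.21 for Clps.

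Pnlip, the major triglyceride lipase, was listed at 11.85, 12.04, 8.01, 11.53 and 11.03 in non-tuft libraries 1 to 5. In tuft libraries 1 to 5 it was listed at 9.13, 8.93, 3.57, 9.79 and 3.89. Non-tuft library 3 was lower than tuft libraries 1, 2 and 4, and so the groups overlapped, with tuft libraries 3 and 5 alone below every non-tuft library. The means were 10.89 ± 1.66 (SD, n = 5) in non-tuft and 7.06 ± 3.06 (SD, n = 5) in tuft cells, and Pnlip was the member with the largest spread in both groups. The log2 fold change was -3.83 (standard error 1.26), with an adjusted p of 0.0685 by limma. An exact two-sided permutation test of Pnlip alone gave p = 0.0317, where 0.00794 is the smallest p that 5 against 5 libraries allow. Without non-tuft library 3, the log2 fold change was -4.55 and the adjusted p by limma was 0.0468. Without tuft library 3 it was -2.96, with an adjusted p of 0.171 by limma. With the replicate number as a block and all 10 libraries kept, Pnlip also passed, at an adjusted p of 0.0141 by limma. Whether Pnlip was called thus depended on the fit, and it was called in only 2 of 17 alternatives.

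Pnliprp1, the related protein with little lipase activity, was the most abundant member after Clps in non-tuft cells. Its non-tuft values were 11.35, 11.92, 12.32, 11.96 and 12.73, and its tuft values were 6.90, 7.26, 7.42, 9.18 and 4.73. Every tuft library lay below every non-tuft library, with a gap of 2.18 between the nearest libraries. Pnliprp1 fell by 4.96 on the log2 scale (standard error 0.67), or 31.1-fold, with an adjusted p of 3.91e-04 by limma and an exact permutation p of 0.00794. Non-tuft library 3, which was the lowest for Pnlip, was the second highest for Pnliprp1, its neighbour on chromosome 19.

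Pnliprp2, the galactolipase of the family, had the lowest mean of the members in both groups. It was listed at 8.92, 9.73, 7.33, 8.62 and 8.63 in non-tuft libraries and at 4.57, 4.80, 2.53, 5.54 and 3.16 in tuft libraries. The groups did not overlap and were separated by 1.79. Pnliprp2 fell by 4.53 on the log2 scale (standard error 0.62, adjusted p = 4.30e-04 by limma, exact permutation p = 0.00794). Library 3 was the lowest of its group for Pnliprp2 in both groups, as it was for Pnlip. Non-tuft library 3 was also the lowest of its group for 24 of 32 other acinar secretory genes, against 14.6% of all genes. Tuft library 3 was the lowest tuft library for 2 of those 32, against 14.8% of all genes.

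Cel, the bile salt-dependent ester lipase, showed the largest fall among the members. Its values were 11.57, 11.96, 10.60, 11.16 and 11.75 in non-tuft libraries and 6.80, 7.50, 6.67, 8.04 and 2.24 in tuft libraries. The gap between the groups was 2.56, the widest of the members, and tuft library 5 stood far below the other tuft libraries. Cel fell by 5.15 on the log2 scale (standard error 0.89), or 35.6-fold, with an adjusted p of 0.00220 by limma and an exact permutation p of 0.00794. Without tuft library 5 the log2 fold change was -4.15.

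Pla2g1b, the secreted phospholipase, was listed at 10.64, 10.82, 7.60, 9.25 and 8.49 in non-tuft libraries. In the tuft libraries it was listed at 6.67, 5.31, 3.34, 5.82 and 1.83. The groups were separate but closer than for the other called members, with 0.94 between tuft library 1 and non-tuft library 3. Pla2g1b fell by 4.77 on the log2 scale (standard error 0.90, adjusted p = 0.00384 by limma, exact permutation p = 0.00794). Over all genes, 5.12% had every tuft library below every non-tuft library, and 4 of the 6 members did.

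Clps, which encodes the cofactor that anchors pancreatic lipase, was the most abundant member in every library. It was listed at 15.65 in non-tuft libraries 1 to 4 and at 15.21 in non-tuft library 5. Its tuft values were 14.43, 13.83, 13.11, 15.21 and 9.37. In non-tuft libraries 1 to 4 Clps ranked first of all genes and so held 15.65, the top value that quantile normalization gives to every library. Higher levels could not be recorded there. In tuft libraries 1 to 4 it still ranked 3, 4, 8 and 2, and in tuft library 5 it ranked 74. Non-tuft library 5 and tuft library 4 tied at 15.21, the next value down. The means were 15.56 ± 0.20 (SD, n = 5) and 13.19 ± 2.27 (SD, n = 5), and Clps had a log2 fold change of -2.37 with a standard error of 0.86 and an adjusted p of 0.0988 by limma. Clps alone gave an exact permutation p of 0.0159. Without tuft library 5 the log2 fold change of Clps was -1.42.

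The order of levels, which RPKM allows because it is per length, differed little between the groups. From high to low, the mean order in non-tuft cells was Clps, Pnliprp1, Cel, Pnlip, Pla2g1b and Pnliprp2. In tuft cells Pnlip stood before Cel, and the other positions were as in non-tuft cells. Only Clps had a range apart from that of its neighbour in this order, by a mean difference of 3.51 ± 0.67 (SD, n = 5) from Pnliprp1 in non-tuft cells and 6.09 ± 1.07 (SD, n = 5) in tuft cells. All other neighbours had overlapping ranges within each group. No member was listed at the lowest value of a library in any of the 10 libraries.

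Returned to the linear RPKM scale, the 6 genes held 11.3%, 11.9%, 10.5%, 11.0% and 9.12% of the summed values of non-tuft libraries 1 to 5. In tuft libraries 1 to 5 they held 4.11%, 2.77%, 1.63%, 7.11% and 0.127%. The share therefore differed more between tuft libraries than between non-tuft libraries, and the groups did not overlap. Clps made up most of it, from 6.78% to 9.23% of a non-tuft library and from 0.118% to 6.78% of a tuft library. In non-tuft libraries 1 to 4 Clps held the top value, which fixed its share at 9.21% to 9.23%. The small spread of the non-tuft shares is therefore largely set by that bound and is not a measured likeness. As a percentage of its non-tuft linear mean, the tuft linear mean was 34.5% for Clps and 14.8% for Pnlip. It was 4.52% to 4.73% for the other 4 genes. The non-tuft mean of Clps is bounded by the top value. Single tuft libraries ranged widely, from 1.35% to 77.7% of the non-tuft mean for Clps and from 0.413% to 33.5% for Pnlip. For the other 4 genes they ranged from 0.130% to 12.9%. The lipases and colipase thus remained detectable in all tuft libraries. Whether that RNA came from tuft cells or from other cells in the pool was not tested.

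**Figure D2:**
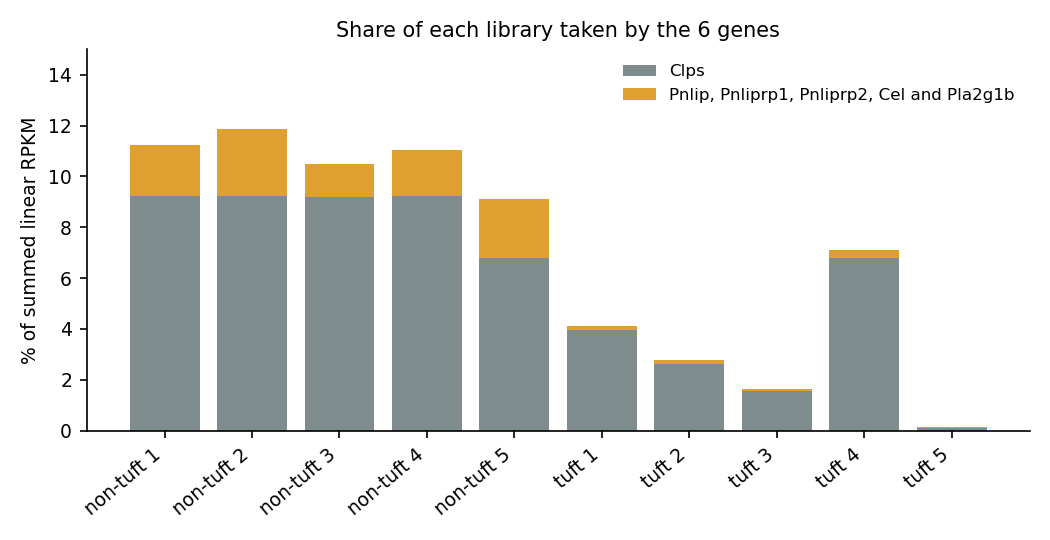
Bars, starting at 0, show the percentage of each library's summed linear RPKM held by Clps (grey) and by Pnlip, Pnliprp1, Pnliprp2, Cel and Pla2g1b together (orange), for 5 non-tuft and 5 tuft libraries. The total ranges from 9.12% to 11.9% in non-tuft libraries and from 0.127% to 7.11% in tuft libraries, with Clps the larger part throughout.

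The tuft libraries with the most and the least lipase RNA were extreme for acinar genes in general. Tuft library 4 was the highest tuft library for 5 of 6 members, for 19 of 32 other acinar secretory genes and for 19.7% of all genes. Tuft library 5 was the lowest for 4 of 6 members, 25 of the 32 acinar genes and 12.7% of all genes. Among non-tuft libraries, library 3 was the lowest for 4 of 6 members, 24 of the 32 acinar genes and 14.6% of all genes. The summed share of the 32 acinar genes was 7.60%, 4.68%, 1.59%, 17.5% and 0.282% in tuft libraries 1 to 5, and 17.7% to 27.2% in non-tuft libraries. Tuft markers summed to 1.64%, 1.23%, 1.83%, 0.797% and 2.27% of tuft libraries 1 to 5. By this sum, the library with the most acinar RNA had the least tuft marker RNA and the reverse. The mean log2 value of the tuft markers did not follow that order, at 6.51, 6.74, 7.12, 6.75 and 6.96 in tuft libraries 1 to 5. By that mean, tuft library 1 was the lowest and tuft library 3 the highest. In non-tuft libraries the tuft markers summed to at most 0.0980%. The part of these differences in the lipase values was not tested.

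Siglecf and Epcam RNA followed the gates, while Ptprc RNA was listed although both gates were Cd45-neg. Siglecf was listed at 5.62 to 7.52 in tuft libraries and at 0 in 4 non-tuft libraries, and all 15 listed tuft markers of 16 rose in tuft cells. Epcam was present in all libraries at 7.44 to 10.87, but not at equal levels. Its mean was 9.82 in tuft and 8.10 in non-tuft libraries, and the groups did not overlap. The log2 difference of 1.72 (adjusted p = 0.0329 by limma) was under the fold threshold. Ptprc, which encodes Cd45, was the 1 of 5 listed leukocyte markers that rose, at 2.74 to 4.33 in tuft and 0 to 1.93 in non-tuft libraries. None of 6 eosinophil markers was listed. Ductal markers did not pass in 8 of 9 cases, with Spp1 lower in tuft cells. Of 8 islet markers, Ppy, Chga and Pcsk2 fell, and the list reached 3.87% of non-tuft library 1. None of the 7 listed stromal markers passed the test, and neither did Fabp4, the 1 listed adipocyte marker of 7. Stromal markers were at 0 in tuft libraries 1 to 4 and made up 0.0453% of tuft library 5 and 0.133% of non-tuft library 5.

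The members were next set beside other secretory products of acinar cells, such as amylases, trypsinogens, elastases and carboxypeptidases. Of the 35 genes of this list 32 were listed, of which 27 fell and 0 rose. The median log2 fold change was -4.58 for the acinar list, -4.65 for the 6 members and 0.02 for all genes. The 5 acinar genes that did not pass were the trypsinogens Prss2 and Try4, the chymotrypsinogens Ctrb1 and Ctrc, and Cela3a, which was at 0 in all tuft and 2 non-tuft libraries. In the joint order of 38 genes from the largest fall, Cel was in position 9, Pnliprp1 in 10, Pla2g1b in 13 and Pnliprp2 in 21. Pnlip was in position 30. Clps was last, but its fall is limited by the top value it held in 4 non-tuft libraries, so its place is not a measured order. The members were therefore spread through the acinar genes rather than gathered at one end.

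To compare each lipase gene with other acinar products of the same library, the mean log2 value of the 32 acinar genes was subtracted. By this measure Clps alone of the 6 genes passed the exact test. Its difference from the acinar mean was 5.09, 4.67, 6.21, 5.11 and 5.15 in non-tuft libraries 1 to 5 and 7.56, 7.60, 8.21, 7.51 and 5.93 in tuft libraries 1 to 5. Tuft library 5 fell below non-tuft library 3, and the other tuft libraries were above every non-tuft library. The difference between the groups was 2.12 log2 units, with an exact permutation p of 0.0159 and an adjusted p of 0.0416 by limma over all genes. After this subtraction 96.8% of all genes passed limma's test as higher and 0.0247% as lower, so passing it does not set Clps apart from most other genes. Leaving out any 1 of non-tuft libraries 1, 2, 4 and 5 and tuft libraries 1 to 3 ended that call, with adjusted p from 0.0630 to 0.0920, and the difference then ranged from 1.91 to 2.09. The top value of 15.65 also bounds the non-tuft side of this difference for Clps.

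For the 5 enzymes the same measure showed no difference that passed the exact test. The tuft minus non-tuft difference was 0.66 for Pnlip (exact permutation p = 0.437), -0.47 for Pnliprp1 (exact p = 0.476) and -0.66 for Cel (exact p = 0.286). It was -0.04 for Pnliprp2 (exact p = 0.960) and -0.28 for Pla2g1b (exact p = 0.587). Over the 5 libraries of a group, the SD of this measure ranged from 0.35 for Pnliprp2 in non-tuft cells to 1.66 for Pnlip in tuft cells. A p above the threshold does not show that these genes moved alike. Relative to the acinar mean, Pnlip was at -1.44 in non-tuft library 3 and -1.32 in tuft library 3, and above 0 in all other libraries. Pnliprp1 was at 2.87 in non-tuft library 3 and 2.52 in tuft library 3, the highest of each group. In both number 3 libraries, then, Pnlip was low and Pnliprp1 high beside the other acinar genes.

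**Figure D3:**
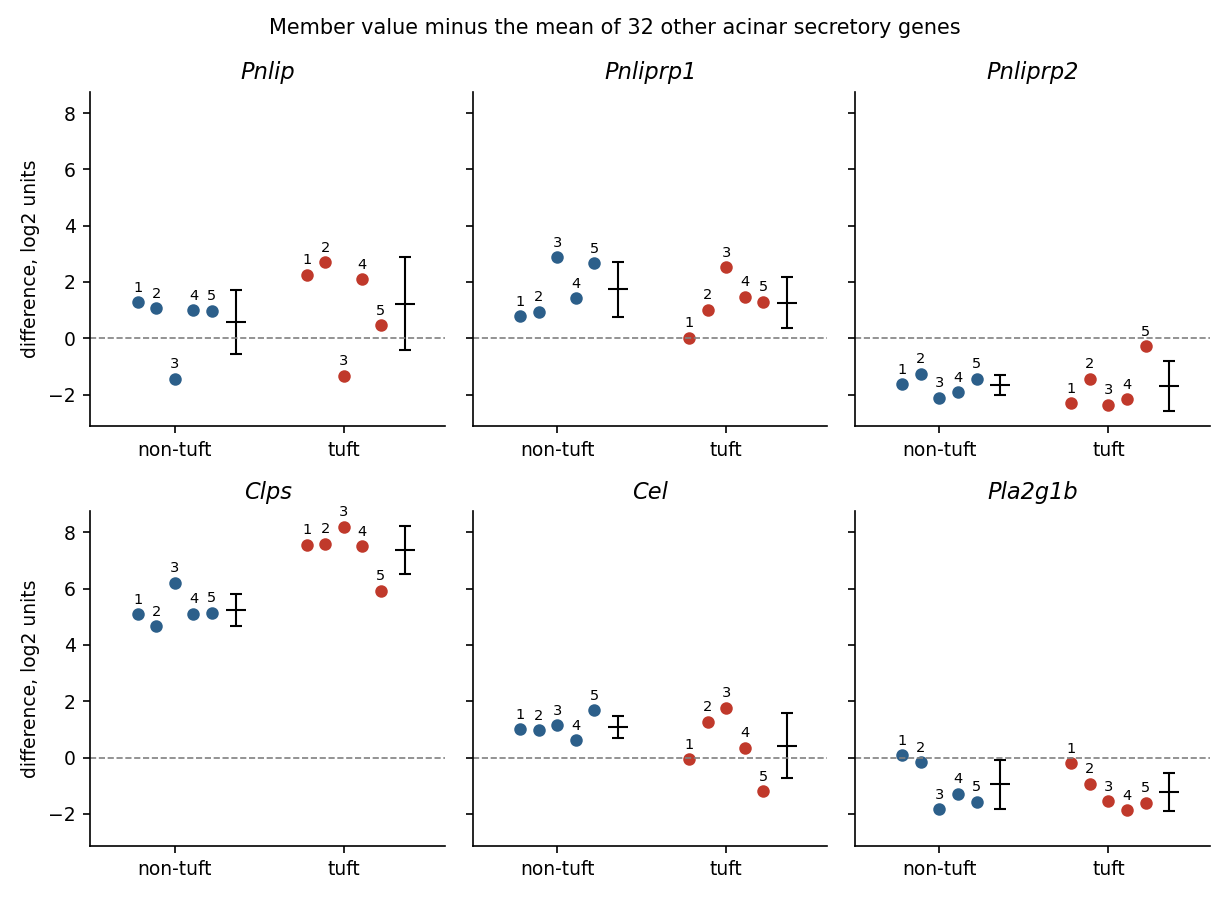
Each panel plots 1 gene's log2 value minus the mean of 32 other acinar secretory genes in the same library, for 5 non-tuft (blue) and 5 tuft (red) libraries numbered by replicate, with mean and SD as black bars and a dashed line at 0. For Clps 4 of 5 tuft points lie above all non-tuft points, while the groups overlap for the 5 enzymes, and Pnlip is below 0 in library 3 of both groups.

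The genes whose profile over the 10 libraries was closest to the mean profile of the members were products of acinar cells. Likeness was the root mean square distance between profiles centred on their own means, over 9993 genes with a median distance of 2.66 log2 units. The closest were the carboxypeptidases Cpa1, at 0.429, and Cpb1, at 0.435. Others were the trypsinogen Try5, the granule protein gene Sycn, the amylase gene Amy2b, the elastase gene Cela3b, the kallikrein Klk1, the ribonuclease Rnase1 and the amylase gene Amy2a5, at up to 0.649. These 9 genes were all in the acinar list. That they were lower in tuft cells follows from how they were chosen. Amylase and trypsinogen genes belong to families of near-identical copies, so reads may be split between Amy2b, Amy2a5, Try5 and their relatives. The smallest p values of the acinar list belonged to Gp2, a granule membrane protein (log2 fold change -5.21), Erp27, an endoplasmic reticulum protein (-7.20), and Amy2a2 (-4.81).

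Transcription factors of acinar cells were lower in tuft libraries in 5 of 12 listed cases of 13, and 0 rose. Ptf1a was at 4.03 to 5.17 in non-tuft libraries and at 0, 0, 0.53, 0.62 and 0 in tuft libraries 1 to 5. Rbpjl was at 5.53 to 6.31 in non-tuft libraries and at 1.48, 0, 2.13, 0 and 0 in tuft libraries. Neither exceeded 2.13 in any tuft library, and all 6 lipase and colipase genes were above the lowest value there. The members had non-tuft means of 8.65 to 15.56, however, against 4.73 for Ptf1a and 5.97 for Rbpjl. The log2 fold changes were -4.51 for Ptf1a and -5.25 for Rbpjl, with a median of -4.65 for the members. Standing above the lowest value therefore does not show a smaller fall of the members. Member values reached as low as 1.83 for Pla2g1b and 2.24 for Cel, both in tuft library 5. Tcf12, an E-box binding protein, did not pass the test and was at 3.25 to 5.31 in tuft and 3.49 to 5.98 in non-tuft libraries. Bhlha15, also called Mist1, which supports granule maturation, was at 5.85 to 7.91 in non-tuft and 2.35 to 3.28 in tuft libraries (log2 fold change -3.79). The other factors called lower were the nuclear receptors Nr5a2 and Nr0b2. The median of the list was -1.10.

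Genes for stimulated release of zymogens, 13 listed of 18, did not move together, with 1 lower, 1 higher and a median log2 fold change of 0.48. Cckar, the cholecystokinin receptor through which caerulein acts, fell from 6.87 to 7.81 in non-tuft libraries to 1.91 to 3.26 in tuft libraries (log2 fold change -4.73). Itpr2, an inositol trisphosphate receptor of acinar calcium signaling, rose by 2.63. Vamp8, a granule fusion protein, had a log2 difference of 1.57 that was under the fold threshold.

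Lipases that are not products of the pancreatic juice showed no shared fall. Of 40 such genes 24 were listed, of which 3 rose, 1 fell and 20 were not called, with a median log2 fold change of 0.09. Ces1d, a carboxylesterase that cleaves triglycerides inside cells, fell, from 4.09 to 6.35 in non-tuft libraries to 0.85 in tuft library 2 and 0 in the other tuft libraries. Pnpla3, a lipid droplet lipase, rose by 3.75, and the other genes that rose were Lipo1 and the monoglyceride lipase gene Mgll. Pnpla6, a lysophospholipase, had a log2 difference of 1.62, under the fold threshold.

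Phospholipases A2 other than Pla2g1b went the other way where they were called. Of 24 genes 16 were listed, and 3 rose and 0 fell, with a median log2 fold change of 0.29. Pla2g4a, the cytosolic enzyme that releases arachidonic acid, was at 6.09 to 7.20 in tuft libraries and at 0.17 to 4.84 in non-tuft libraries. Pla2g7, which inactivates platelet-activating factor, was at 3.95 to 5.07 in tuft libraries and at 0.33 or lower in non-tuft libraries. Pla2g16 was at 9.13 to 9.30 in tuft and 6.56 to 7.37 in non-tuft libraries. The secreted pancreatic enzyme Pla2g1b was thus lower in tuft cells, while these 3 phospholipases A2 were higher and the other 13 listed were not called.

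Genes for the uptake and packaging of dietary lipid, the step that follows lipase action in the intestine, were listed in 14 of 19 cases, with a median log2 fold change of 0.62. Of these, 2 rose and 1 fell. Cideb, a lipid droplet protein used in lipoprotein assembly, rose by 5.18. Fabp1, a fatty acid-binding protein, had values of 5.78, 6.95, 2.56, 8.71 and 3.24 in tuft libraries and 0 to 3.05 in non-tuft libraries. Leaving out any 1 of non-tuft libraries 2, 3 and 5 and tuft libraries 1, 2 and 4 ended its call, with a log2 fold change from 3.23 to 4.11. Fabp2 was at 0 in all tuft libraries and 1 non-tuft library and reached 5.71 in non-tuft library 4. The call of Fabp2 was lost without any single library except non-tuft library 3, with adjusted p by limma from 0.0522 to 0.0993.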

How the data were processed

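The 10 libraries were grouped by their sample records. RNA was amplified by Smart-Seq2 and read as 50 bp single ends. The authors aligned reads to mm9 with Hisat2, computed RPKM with Stringtie and Ballgown, dropped genes of low RPKM variance and deposited quantile-normalized log2(RPKM + 1) values. Their 3 columns with a fold change, p-value and false discovery rate were not used. Read counts were not used here, so depth is unknown and no counting interval is given. Groups were compared over all genes with limma 3.58.1 in R 4.3.3, with Benjamini-Hochberg adjustment, and by exact two-sided permutation for single genes. The fit was checked on simulated data. The rest used scipy 1.17.1, pandas 2.3.3 and matplotlib 3.10.9 in Python 3.11.15.

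The members and the 13 gene lists were chosen with earlier results of these data known. Genes named were the members, the 10 closest profiles (1 of which is not reported here), the 3 smallest limma p of each of 6 lists, and Epcam, Siglecf and Ptprc. Other genes named from the lists were picked with their values in view. Alternatives were the replicate number as a block, 0.1 or 10 added in place of 1, a filter at a mean of 2, ribosomal centring, trend and robust eBayes, a common floor, other thresholds and references, and each library left out. Both populations came from the same 5 mice, but the sources do not say which libraries share one, so the groups were compared without pairing.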

Additional observations from a re-analysis of the deposited data

Results flagged for a closer look

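Within groups of 5 libraries, 7 of 86 sets of values held a library whose gap to the nearest of the others was a larger part of the range than Dixon's critical value allows, and chance gives about 1 in 20. That rate does not apply to 3 of the 7, for Clps, Ces1d and Siglecf, where the other 4 values were tied at the top or bottom of the scale and any different value would be named. Pnlip in non-tuft library 3 was at 8.01, with the others at 11.03 to 12.04. Relative to the acinar list, Pnlip in non-tuft library 3 was at -1.44, with the others at 0.97 to 1.29. Clps in non-tuft library 5 was at 15.21, with the others tied at the top value of 15.65. Cel in tuft library 5 was at 2.24, with the others at 6.67 to 8.04. Try5 in non-tuft library 3 was at 9.21, with the others at 10.97 to 11.28. Ces1d in tuft library 2 was at 0.85 and Siglecf in non-tuft library 2 at 1.61, each with the others at 0.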

How the results depend on the processing

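The log2 fold changes of the 6 members kept their direction in all 17 alternatives, and 100 of their values kept their side of the threshold, with 2 exceptions, both for Pnlip. With the replicate number as a block, Pnlip passed at -3.83 (adjusted p = 0.0141 by limma), and 491 genes were called lower and 1009 in all. Deviations of same-numbered libraries correlated at 0.0619 to 0.240, above 0 for all 5 numbers and above 0.1 for 3, and 4 of 5 non-tuft libraries correlated best with the tuft library of their own number. That hints that the numbers mark the pairs but was short of the requirement of over 0.1 for every pair. The block is therefore given as an alternative. The block changed no other member's call. With 1 library left out, Pnlip ranged from -4.55 to -2.96, Clps relative to the acinar list from 1.91 to 2.47 and Pnliprp2 relative to it from -0.39 to 0.13. That Pnliprp2 value was also 0.26 with 0.1 added, 0.0047 with amylases and 0.0695 with the list's median as the reference, all within its standard error of 0. Clps relative to the list was 1.41 with 10 added, with an adjusted p of 0.0513 by limma. Adding 10 left 278 genes called, 116 lower and 162 higher. Centring on ribosomal protein genes moved the median of all genes by 0.79 and gave 1278 higher and 225 lower, 85.0% higher against 52.0%. The members then ranged from -4.36 to -1.58. An adjusted p under 0.01 left 292 lower. For the other named genes 497 values kept their side of the threshold, 26 lost their call and 3 gained one. Causes were not tested. The unknown depth leaves values near 0 without a bound.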

Other observations

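Within each library, the log2 difference between Pnlip and Pnliprp1 was 0.50, 0.12, -4.31, -0.43 and -1.69 in non-tuft libraries 1 to 5 and 2.23, 1.67, -3.84, 0.62 and -0.84 in tuft libraries 1 to 5. The library numbers stood in the same order in both groups. The same was seen for Pnlip with Clps and for Pnliprp1 with Clps, and for these 3 of 15 pairs only. Clps was tied at the top value in non-tuft libraries 1 to 4. For pairs with Clps, the order of those libraries is therefore that of the other gene alone. The pairs were chosen after their values were seen and share genes, and the records do not state that a number marks one mouse.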
